A study of Mus musculus with 15 samples.

Results

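The cells compared here were CD138+ and GL7+ B cells that had both been cultured with GSK-J4, so the comparison asks which gene expression differences between the fractions are present when the inhibitor is in the medium. Both came from CD43- spleen B cells of wild-type C57BL/6J females. The cultures held IL-2, IL-5, LPS and 250 nM GSK-J4 for 3 days, and GL7+ or CD138+ cells were then enriched magnetically before poly(A) RNA was sequenced. The GL7+ group had libraries 1, 2 and 3, each from the mouse of that number. The CD138+ group had libraries 1 and 2 from the mice of those numbers and a library headed 4 in the table. The sample titles run from 1 to 3 in this group and tie the sample numbered 3 to mouse 3, but no title has the number 4, so that library is placed in the group and paired with no mouse. The same fractions cultured with the solvent DMSO (3 libraries each) are given beside the results. Unstimulated CD43- cells (3 libraries) are used in a description of levels and in the alternative fit with all 15 libraries. No age is given, and all 12 cultured libraries share the stimulation. Of the 21761 genes in the table, 10067 had at least 1 RPKM (reads scaled to gene length and to the reads of the library) in at least 3 of the 6 GSK-J4 libraries, and these are the genes described. At that limit, Mir106b was just inside with 1.21, 3.99 and 1.00 RPKM in the GL7+ libraries and a listed 0 in each CD138+ library. Srd5a1 was just outside with a third-highest value of 0.999 RPKM.

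GSK-J4 blocks the enzymes KDM6A and KDM6B, which remove methyl groups from lysine 27 of histone H3, a mark of silenced genes laid down by the Polycomb enzyme EZH2. When a B cell becomes an antibody-secreting plasmablast, the factors Blimp-1 (Prdm1), IRF4 and XBP1 come up, the B cell programme kept by PAX5 and its partners is shut down, and the endoplasmic reticulum (ER) grows to fold and export antibody. CD138 is syndecan 1, the product of Sdc1, and is used to mark plasmablasts and plasma cells. GL7 is a sialylated sugar epitope found on activated B cells.

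The 6 libraries held 6241186 to 12213698 reads in genes, and every CD138+ library (at most 7712471) was shallower than every GL7+ library (at least 9174693). A gene of median length at 1 RPKM rested on 16.9 to 33.0 reads. On the log2(RPKM + 1) scale, libraries of the same fraction correlated across genes at r = 0.991 to 0.996 and libraries of different fractions at 0.933 to 0.949. The first principal component held 87.8% of the variance and parted the fractions, and the second held 4.5% and set CD138+ library 1 (11.95) apart from CD138+ library 4 (-11.85). Of 5 defining T cell markers, 4 NK cell markers and 3 dendritic cell markers none reached 1 RPKM in any of the 6 libraries, and Cd3e, Ncr1 and Col1a1 were listed at 0 in all 6. In the longer lists of markers 3 of 13 T cell genes, 1 of 9 NK cell genes and 3 of 10 dendritic cell genes were tested. All 7 differed, as did 71.5% of all tested genes. Flt3, a growth factor receptor, had a mean of 20.9 RPKM in GL7+ and 5.64 in CD138+ libraries, the dendritic cell factor Batf3 3.23 against 0.465 and the kinase gene Lck 3.81 against 0.892. The membrane protein genes Bst2 (48.5 against 109) and Cd2 (44.1 against 72.8) were higher in CD138+ cells. The 6 myeloid markers summed to 1.87 to 4.32 RPKM in GL7+ and 1.46 to 1.84 in CD138+ libraries. Within them Itgam, which encodes a myeloid integrin, had a mean of 2.15 against 0.287 RPKM. The globin gene Hbb-bs was also higher in GL7+ cells, at 2.25 against 0.244 RPKM, and the adhesion gene Pecam1 at 25.9 against 8.51. Batf3, Lck, Itgam and Hbb-bs reached 1 RPKM in GL7+ libraries only, so the filter fixed their direction. The part of these cells or genes in the results was not tested.

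Most of the genes differed between the fractions. Tested with limma on log2(RPKM + 1), with p-values adjusted by the Benjamini-Hochberg method over all 10067 genes and a threshold of 0.05, 7198 genes (71.5%) differed: 2762 (27.4%) were higher in CD138+ cells and 4436 (44.1%) in GL7+ cells. Since so many genes passed, a list of genes is read below against these shares, and size is used as well: 435 genes (4.32%) were higher in CD138+ cells and 474 (4.71%) in GL7+ cells by at least 1 on the log2 scale. Of these, 41 and 76 entered the comparison through 1 fraction only, with 1 RPKM or more in all 3 of its libraries and less in all 3 of the other. Over all tested genes 136 entered that way through CD138+ and 168 through GL7+ cells. By at least 2 on that scale, 35 genes (0.348%) were higher in CD138+ and 73 (0.725%) in GL7+ cells. The values of the 3 CD138+ libraries lay wholly above those of the 3 GL7+ libraries for 2820 genes and wholly below for 4469. The median difference over all genes was -0.11. After scaling by the trimmed mean of M values (TMM), which sets the bulk of genes level, that median moved by 0.114. CD138+ cells then had 3563 higher genes (35.4%) and GL7+ cells 3440 (34.2%), so the split of the calls moved from 38.4% higher in CD138+ cells to 50.9%, and to 47.2% with quantile normalization. All 909 genes past 1 on the log2 scale kept call and direction with both. Magnetic enrichment leaves a mix, and fewer cells of a type and less RNA per cell cannot be told apart in these libraries.

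**Figure D1:**
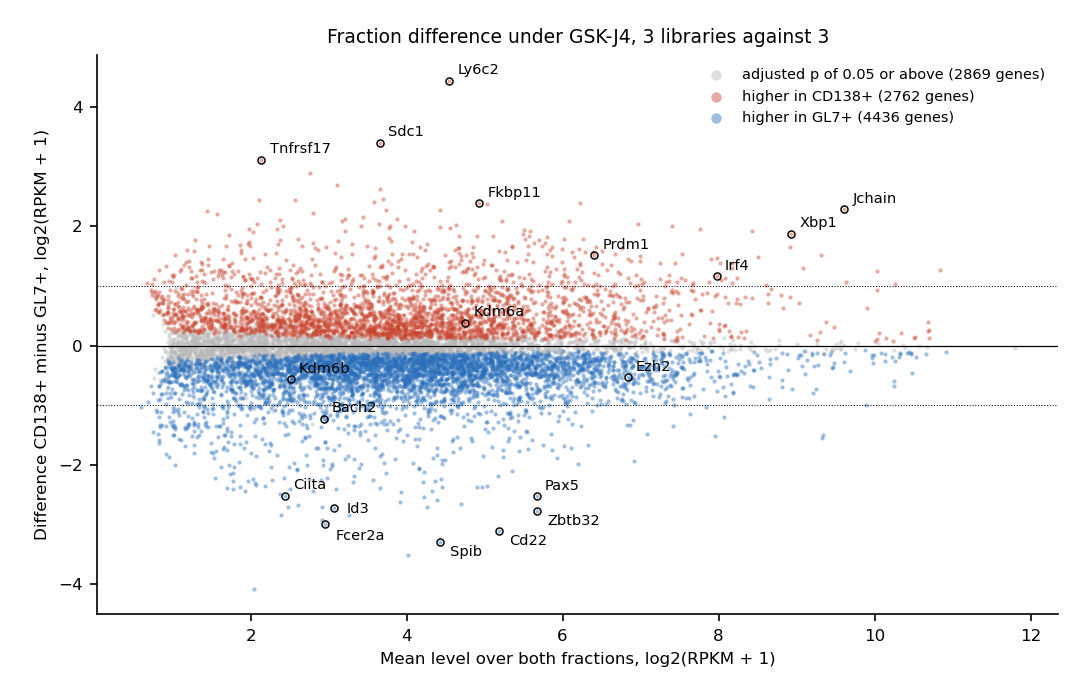
Each point is a gene, with its mean level over both fractions (x axis, log2(RPKM + 1)) and its difference between CD138+ and GL7+ cells under GSK-J4 (y axis, same scale); red and blue points passed the test as higher in CD138+ or GL7+ cells, and dotted lines mark a difference of 1. The 2762 red and 4436 blue points lie mostly within the dotted lines, with Ly6c2 (4.45) and Sdc1 (3.41) highest and Spib (-3.29) and Cd22 (-3.11) among the lowest.

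The genes used to define plasmablasts were higher in the CD138+ libraries. Sdc1, whose product was the handle of the enrichment and so checks the labels, stood at 2.33, 3.30 and 3.00 RPKM in GL7+ libraries 1 to 3 and at 34.5, 41.1 and 44.8 in CD138+ libraries 1, 2 and 4. Prdm1, which encodes the repressor Blimp-1, had 48.1, 51.6 and 47.8 RPKM in GL7+ and 142, 146 and 138 in CD138+ libraries. The groups did not overlap for either gene, and the log2 differences were 3.41 (SE 0.106, adjusted p = 3.1e-11) and 1.51 (SE 0.047, adjusted p = 3.1e-11). Xbp1, the driver of the secretory programme, had 234, 266 and 261 against 860, 944 and 1000 RPKM, a log2 difference of 1.88 (SE 0.063). Irf4, which is needed to form plasma cells, had 159, 171 and 171 against 378, 375 and 371 RPKM, a difference of 1.16 (SE 0.042). The ratio of the mean levels was 2.25 for Irf4, 2.89 for Prdm1 and 3.69 for Xbp1, against 13.9 for Sdc1.

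Plasma cell factors as a list had 8 of 9 tested members higher in CD138+ cells, with a median log2 difference of 1.51 against -0.11 over all genes. Creb3l2, a membrane-bound factor of the secretory pathway, had 10.4, 12.3 and 11.2 RPKM in GL7+ libraries and 46.6, 48.2 and 51.0 in CD138+ libraries. Eaf2 and Ell2, elongation factors that act on transcription in plasma cells, were higher by 1.77 and 1.53. The exception was Zbtb32, a zinc finger repressor: it had 130, 118 and 149 RPKM in GL7+ and 21.1, 17.8 and 16.8 in CD138+ libraries, a difference of -2.77 (SE 0.085, adjusted p = 3.1e-11).

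Surface proteins and secreted products of plasma cells were also higher in CD138+ cells. Ly6c2, a membrane-anchored surface protein, had 3.96, 4.22 and 3.78 RPKM in GL7+ libraries and 103, 104 and 117 in CD138+ libraries, and its log2 difference of 4.45 (SE 0.064, adjusted p = 5.7e-14) was the highest of all genes. Its neighbour Ly6c1 was higher by 2.22, but the copies are alike enough that reads can be split between them. Tnfrsf17 encodes BCMA, the receptor that carries survival signals of APRIL to plasma cells, and had 0.244, 0.268 and 1.01 RPKM against 11.6, 12.5 and 11.2, a difference of 3.12 (SE 0.161). The related receptors moved less: Tnfrsf13b (TACI) differed by 0.11 (adjusted p = 0.059 without GL7+ library 1 and 0.066 without CD138+ library 4) and Tnfrsf13c (the BAFF receptor) by -0.66. Of 18 surface proteins on the list, 17 were higher in CD138+ cells, 11 of them by at least 1, and Itgb7 was at -0.48 (adjusted p = 0.011, or 0.057 in the fit blocked by mouse). Cxcr4, which guides plasma cells to bone marrow, had 38.8, 41.3 and 40.9 against 140, 140 and 142 RPKM.

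Jchain, which joins antibody units into polymers, had 330, 377 and 351 RPKM in GL7+ and 1700, 1740 and 1730 in CD138+ libraries, a difference of 2.29 (SE 0.056, adjusted p = 1.8e-11). All 10 members of the antibody assembly list were higher in CD138+ cells, with a median of 1.65. Fkbp11, an ER prolyl isomerase, led this list at 2.39, followed by Jchain, Tram2 at 1.94 and Txndc5 at 1.93. The 14 genes furthest towards CD138+ cells by the naming rule (at least 5 RPKM in the higher group, no overlap) also held genes outside these lists. The T-type calcium channel gene Cacna1h had 1.03, 2.17 and 1.26 against 15.2, 19.6 and 17.2 RPKM, and Hsd11b1, which makes active glucocorticoid, had 2.28, 2.21 and 2.65 against 19.2, 22.4 and 20.7. Trp53inp1, a p53-induced stress protein gene, had 33.0, 33.2 and 28.6 against 172, 179 and 160 RPKM. Evi5, Capn5, Gpr160, Cox4i2, Cpeb3 and Pik3cg made up the rest, with log2 differences of 2.62, 2.45, 2.44, 2.44, 2.41 and 2.38.

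**Figure D2:**
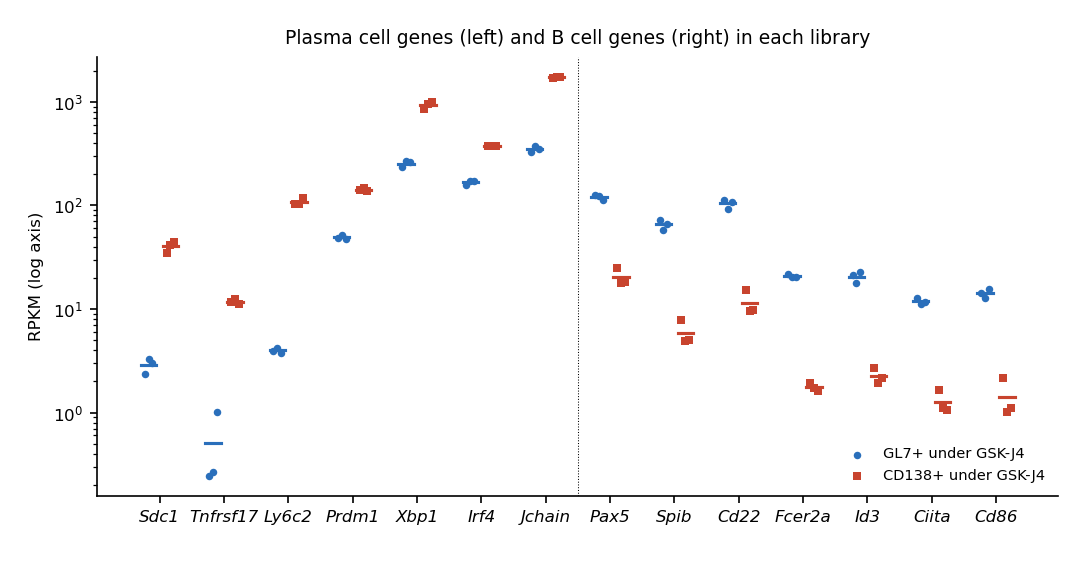
RPKM (log axis) of 14 genes in each of the 6 GSK-J4 libraries, with plasma cell genes left and B cell genes right of the dotted line; circles are GL7+ libraries 1 to 3, squares CD138+ libraries 1, 2 and 4 in that order, and bars the group means. The groups do not overlap for any of the 14 genes, but several were named by a rule that requires this. Over all tested genes 72.4% did not overlap. CD138+ library 1 is the highest of its group for Pax5, Spib, Cd22, Fcer2a, Id3, Ciita and Cd86.

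The secretory machinery was higher in CD138+ cells almost without exception. All 28 genes of the ER folding list (chaperones, disulphide isomerases and their helpers) were higher in CD138+ cells, with a median log2 difference of 1.05, and so were all 33 genes of ER translocation and N-glycosylation (median 0.96) and all 16 of ER-associated degradation (median 0.98). In ER to Golgi vesicle traffic 27 of 28 genes were higher (median 0.80). By at least 1 on the log2 scale, 19, 16, 8 and 11 members of these 4 lists were higher and none was lower, against 4.32% and 4.71% of all genes. The exception among the traffic genes was the coat protein gene Sec24b at -0.21 (adjusted p = 0.0043), which did not pass after TMM scaling. Its paralogs Sec24a and Sec24d were higher by 1.64 and 1.62. The ER folding genes together took 1.68% ± 0.0782 (SD, n = 3) of the reads in GL7+ and 3.53% ± 0.0594 in CD138+ cells.

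Many of these chaperone genes are known targets of the unfolded protein response, in which XBP1 and ATF6 bind the ER stress response element: the letters CCAAT, 9 bases of any kind, then CCACG. Both strands of RefSeq promoters (250 bases before to 50 after the start, assembly GRCm38.p6) were searched for it. It was present in 8 of the 24 ER folding genes with a promoter in the table (33.3%): Creld2, Hsp90b1, Ero1lb, Calr, Pdia6, Dnajc3, Hspa5 and Canx. Of all tested genes with a promoter 0.212% held it (17 of 8026), and the 8 ER folding genes are among them. Of the genes higher in CD138+ cells by at least 1, 2.11% held it (7 of 332), among them Creld2, Hsp90b1, Ero1lb and Calr. These shares therefore overlap and are not separate results. Of the genes higher in GL7+ cells by at least 1, none of 336 held the element. None of 25 promoters of the translocation list and none of 23 of the traffic list held it, although those lists also lay higher in CD138+ cells, while 2 of 12 in ER-associated degradation (16.7%) and 1 of 9 in antibody assembly (11.1%) did. A match describes the letters and not binding. The stretches around it are shown for the 4 ER folding genes that had the largest differences, 5′ to 3′ on the strand of the gene and upstream of its start, with the element in capitals (where it reads CGTGG first it lies on the opposite strand).
Creld2, chr15:88819480-88819578, plus strand: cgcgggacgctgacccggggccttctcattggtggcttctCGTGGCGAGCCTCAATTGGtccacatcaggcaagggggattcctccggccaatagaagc
Hsp90b1, chr10:86705598-86705694, minus strand: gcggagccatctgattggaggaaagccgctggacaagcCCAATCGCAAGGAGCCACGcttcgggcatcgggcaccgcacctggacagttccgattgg
Ero1lb, chr13:12565642-12565740, plus strand: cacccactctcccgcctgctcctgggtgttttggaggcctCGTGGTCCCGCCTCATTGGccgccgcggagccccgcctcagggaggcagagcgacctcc
Calr, chr8:84847035-84847133, minus strand: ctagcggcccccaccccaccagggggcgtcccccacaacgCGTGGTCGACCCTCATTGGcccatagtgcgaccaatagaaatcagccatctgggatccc

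The element began 126 bases before the start in Creld2, 212 in Hsp90b1, 201 in Ero1lb and 162 in Calr. Creld2, which encodes a stress-induced ER protein, had 144, 152 and 154 RPKM in GL7+ and 384, 414 and 452 in CD138+ libraries. Hsp90b1, the ER form of HSP90, had 1120, 1260 and 1160 against 2840, 2820 and 2930. Ero1lb, an oxidase that forms disulphide bonds, had 58.5, 61.4 and 57.7 against 122, 125 and 122, and Calr, a calcium-binding chaperone of sugar-bearing proteins, 810, 895 and 856 against 1740, 1730 and 1780 RPKM. All 4 were at least 1.04 higher on the log2 scale, but they were picked by this difference, so its size is no separate result. None of the 4 overlapped between the fractions. The same held for all 28 ER folding genes, with or without the element, and for 72.4% of all tested genes. The same element in Canx, the membrane-bound partner of Calr, went with a difference of 0.13 (adjusted p = 0.024). With limma on quantile-normalized values its adjusted p was 0.37, and it was 0.078 and 0.12 without CD138+ library 2 or GL7+ library 3.

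Of 15 sensors and transducers of the unfolded protein response, 12 were higher in CD138+ cells. Ern1, which encodes the sensor IRE1 that splices Xbp1, was higher by 1.45 and the ER co-chaperone gene Dnajb9 by 1.21. The genes of the PERK branch, which acts through ATF4, were mixed. Chac1 was higher in CD138+ cells by 1.49, Atf4 by 0.15, Ddit3 (CHOP) did not pass (0.00, adjusted p = 0.97), and Trib3 and Ppp1r15a were lower by 1.16 and 0.48 on the log2 scale. Of 13 amino acid transporters 7 were higher in CD138+ cells, led by Slc38a10 (1.36) and Slc7a7 (1.08), and 1 was lower. Lysosome and autophagy genes were higher in 16 of 23 cases, with the cathepsins Ctsd (44.7, 43.0 and 44.7 against 124, 136 and 139 RPKM) and Ctsb (1.26) in front. Ctsh, another cathepsin, and Tfeb, a master factor of lysosome genes, went the other way at -1.54 and -1.0.

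**Figure D3:**
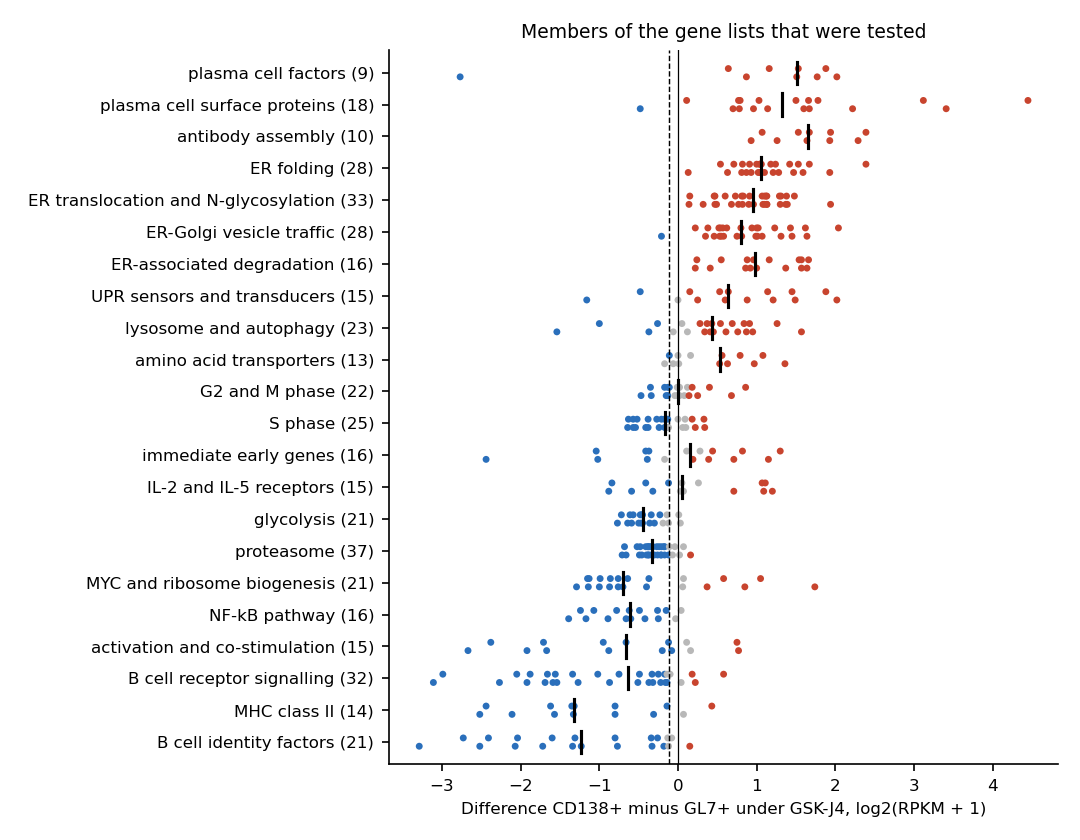
Log2 differences between CD138+ and GL7+ cells under GSK-J4 for the tested members of 22 gene lists, with the number of members in brackets; red and blue points passed the test, grey points did not, thick bars are list medians and the dashed line is the median of all genes (-0.11). The secretory lists lie to the right of 0 with medians of 0.80 to 1.65, and the lists of B cell identity factors and MHC class II lie to the left with medians of -1.23 and -1.33.

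Transcription factors that keep B cell identity were lower in CD138+ cells. Pax5, the factor that commits a cell to the B lineage, had 126, 122 and 113 RPKM in GL7+ libraries and 24.9, 17.8 and 18.3 in CD138+ libraries, a log2 difference of -2.52 (SE 0.102, adjusted p = 2.4e-10). Spib, an ETS factor of mature B cells, had 72.3, 58.1 and 66.6 against 7.82, 4.89 and 5.02, a difference of -3.29 (SE 0.137, adjusted p = 2.9e-10). Id3, an inhibitor of E proteins, had 21.5, 17.7 and 22.5 against 2.69, 1.91 and 2.16. CD138+ library 1 was the highest of its group for all 3 genes, yet below the lowest GL7+ library. Of 21 factors on the list 17 were lower in CD138+ cells, 11 by at least 1. Bach2, a repressor of Prdm1, had 11.7, 10.4 and 10 against 3.89, 4.08 and 4.05 RPKM (difference -1.23). Bcl6, the germinal centre repressor, was low in both fractions at 3.95, 3.05 and 3.29 against 1.51, 1.54 and 1.70 (difference -0.77). Tcf3, Foxp1 and Spi1 did not pass, at -0.08, -0.12 and -0.13, and Foxo1 was at 0.15 (adjusted p = 0.03, but 0.089, 0.062 and 0.15 without CD138+ library 1, CD138+ library 2 or GL7+ library 3).

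Receptors and signalling proteins of the B cell receptor were lower in CD138+ cells for 26 of 32 genes, with a median of -0.63. Cd22, an inhibitory co-receptor, had 114, 92.3 and 108 RPKM in GL7+ and 15.1, 9.50 and 9.76 in CD138+ libraries, a difference of -3.11 (SE 0.135). Fcer2a (CD23), the low-affinity IgE receptor, had 22.0, 20.3 and 20.3 against 1.94, 1.73 and 1.60. These inhibitory and accessory receptors had wider differences than the receptor's own signalling chain: Cd79b was at -0.49 and Cd79a at -0.14 (adjusted p = 0.014, but 0.067, 0.066 and 0.061 without GL7+ library 1, CD138+ library 2 or GL7+ library 3, and -0.01 after TMM scaling). The adaptor gene Blnk was higher in CD138+ cells by 0.58.

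Transcripts of MHC class II antigen presentation were lower in CD138+ cells, at the regulator and at most of the class II genes. Ciita, the master activator of MHC class II genes, had 12.9, 11.2 and 11.7 RPKM in GL7+ and 1.65, 1.11 and 1.06 in CD138+ libraries, a difference of -2.52 (SE 0.111, adjusted p = 4.6e-10). Of 14 class II genes 12 were lower, 8 by at least 1, with H2-DMb1 at -2.44 and H2-DMb2 at -2.11, which load peptides. Cd74, the invariant chain, remained high in both, at 1740, 1650 and 1700 against 1460, 1500 and 1650 RPKM (difference -0.14, adjusted p = 0.012, but 0.054 without CD138+ library 1 and -0.01 after TMM scaling). MHC class I went the other way: 7 of 13 genes were higher in CD138+ cells and 2 lower, with H2-Q7 at 1.0 and B2m, the shared light chain, at 0.86.

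Activation and co-stimulation genes were lower in CD138+ cells in 11 of 15 cases. Cd86, a ligand that co-stimulates T cells, had 14.3, 12.7 and 15.6 against 2.15, 1.02 and 1.10 RPKM, a difference of -2.67 (SE 0.145). Cd83 was at -2.38 and Cd40, the receptor for T cell help, at -1.92. Of 16 class switch genes 12 were lower in CD138+ cells, and Lig4, a DNA ligase of end joining, was higher by 0.87. Of the enzymes that act on the GL7 sugar, those that build it were higher in CD138+ cells, St6gal1, a sialyltransferase, by 1.06 and B4galt1 by 0.67. Cmah, which turns the sialic acid into a form that the GL7 antibody does not bind, was also higher, by 0.94.

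NF-kB pathway genes were lower in CD138+ cells in 14 of 16 cases and higher in none, with Traf1 at -1.39 and Nfkb1 at -1.24. Toll-like receptors divided. Tlr9, which senses bacterial DNA, had 8.94, 7.25 and 9.13 against 1.02, 0.672 and 0.890 RPKM, and Tlr1 was at -2.25, whereas Tlr7, which senses RNA, was higher in CD138+ cells by 0.78. Tlr4, the LPS receptor that the culture engaged, did not pass at 0.11 (adjusted p = 0.24, but 0.03 after TMM scaling), while its partner Ly96 was higher by 0.51. Cytokine genes divided likewise: Il10 had 17.2, 18.1 and 19.9 against 56.4, 48.6 and 49.4 RPKM, and the growth factor gene Vegfa was higher by 1.32. Lta and Tnf were lower in CD138+ cells, at -2.39 and -2.25, and 9 of the 14 cytokine genes were lower in all. Among migration receptors the lymph node homing gene Ccr7 was at -1.99, opposite to Cxcr4 at 1.78.

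The remaining genes furthest towards GL7+ cells were B3gnt5, Mpeg1, Evl, Ffar1 and Gypc, at -2.85, -2.84, -2.71, -2.71 and -2.70. The rule also took a pair of RNA genes shorter than 200 bases, for which RPKM rests on few reads. Snord73a (68 bases) had 16.0, 16.0 and 15.6 RPKM in GL7+ libraries and was listed at 0 in all 3 CD138+ libraries, with at most 13 reads in a library, so no fold is given. Snora61 (62 bases) had 14.4, 14.1 and 15.9 against 7.76, 0 and 0 RPKM, and its SE of 0.682 was wide.

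Growth and division genes were close to level, so their direction depended on scaling. G2 and M phase genes had a median of 0.00, with 6 of 22 higher in CD138+ and 8 in GL7+ cells, and after TMM scaling 12 and 3. Mki67, a proliferation marker, was higher in CD138+ cells at 325, 335 and 362 against 185, 212 and 164 RPKM (difference 0.86). Of 25 S phase genes 16 were higher in GL7+ cells (10 after TMM scaling), with Uhrf1 and Rrm1 at -0.64 and -0.63. Genes of ribosome biogenesis were clearer: with MYC and its partners 14 of 21 were lower in CD138+ cells under both scalings. The MYC antagonists Mxd4 and Mxi1 were higher by 1.74 and 1.05 and MYC's partner Max was at -1.29, while Myc itself was higher in CD138+ cells by 0.37, at 31.8, 32.4 and 34.4 against 48.2, 40.1 and 40.4 RPKM (adjusted p = 3.4e-04). Cytoplasmic ribosomal protein genes had a median of -0.08 that turned to 0.05 after TMM scaling, and respiratory chain genes went from -0.06 to 0.07. Glycolysis genes were lower in CD138+ cells in 16 of 21 cases (12 after TMM scaling), with Pgam1 at -0.77 and Ldha at -0.72, and proteasome genes in 31 of 37 (24 after TMM scaling).

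Survival and arrest genes divided within families. Of the BCL2 family, Bcl2l1 (BCL-XL) had 22.4, 27.5 and 26.2 against 49.6, 58.3 and 60.3 RPKM, and Mcl1, which plasma cells need, was higher by 0.52. Bcl2 was lower in CD138+ cells at -1.67 and Bcl2a1d at -2.37, so anti-apoptotic members lay on both sides. The pro-apoptotic Bcl2l11 (BIM) was higher by 0.93. Among 7 inhibitors of cyclin-dependent kinases 4 were higher in CD138+ cells and none lower, with Cdkn2b at 1.25 and Cdkn2c, which is needed for plasma cell arrest, at 0.83. Interferon response genes also divided: Irf7, an inducer of interferon, had 7.34, 7.42 and 8.53 against 28.6, 34.9 and 33.8 RPKM, whereas the RNA sensor gene Ifih1 had 7.46, 7.03 and 7.47 against 2.02, 1.60 and 1.44.

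The transcripts of the enzymes that GSK-J4 acts on differed between the fractions in opposite directions, each by less than 1 on the log2 scale. Kdm6a had 23.5, 24.0 and 20.3 RPKM in GL7+ and 32.2, 30.0 and 27.3 in CD138+ libraries, a difference of 0.39 (SE 0.076, adjusted p = 4.8e-04). Kdm6b had 6.24, 5.57 and 6.04 against 3.74, 3.53 and 3.79, a difference of -0.57 (SE 0.115, adjusted p = 5.9e-04). Ezh2, the opposing methyltransferase, had 133, 135 and 139 against 97.2, 92.2 and 91.6 (difference -0.53). Of 25 Polycomb and demethylase genes 13 were lower in CD138+ cells, among them Phc2 at -1.04, and 5 were higher. Over all tested genes 44.1% were lower and 27.4% higher, and the list median was -0.18 against -0.11. After TMM scaling 10 of the list were lower and 7 higher, so it lay near the level of all genes. The metallothionein genes Mt1 and Mt2, which bind zinc and are near-identical, were higher in CD138+ cells under GSK-J4. Mt1 had 53.2, 57.3 and 59.8 against 131, 120 and 142 RPKM and Mt2 37.3, 37.2 and 39.6 against 99.1, 96.3 and 111. Under DMSO the means of Mt1 were 4.03 and 7.93 RPKM and those of Mt2 1.40 and 3.92, so the log2 difference between fractions (1.19 and 1.40 under GSK-J4, 0.84 and 1.04 under DMSO) did not differ between media past the threshold (adjusted p = 0.16 and 0.46).

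The fraction differences under GSK-J4 mostly matched those under DMSO. With the same fit and genes, 6814 genes (67.7%) differed under DMSO, 2515 (25.0%) higher in CD138+ and 4299 (42.7%) in GL7+ cells. Of the calls 6015 were shared with the same direction, which is 83.6% of those under GSK-J4 and 88.3% of those under DMSO, and 34 had opposite directions. Of the 909 genes past 1 on the log2 scale under GSK-J4, 875 were also called under DMSO in the same direction. Across genes, which are not independent, the differences correlated at r = 0.933. The media do not share libraries, and the difference of the fraction contrasts (GSK-J4 minus DMSO) was tested for each gene: 476 genes (4.73%) passed, 134 (1.33%) above 0 and 342 (3.4%) below. This number rests on few libraries: it fell to between 215 and 297 genes without GL7+ DMSO library 1 or 3, GL7+ GSK-J4 library 3, any of the 3 CD138+ DMSO libraries, or CD138+ GSK-J4 library 2. Of the 49 named genes for which this change passed, 21 did so in every alternative fit, among them Spib, Zbtb32, Cd22, Id3, Egr1, Ier2, Junb and Il2rb. The distance between the fractions was wider under GSK-J4 for 330 of the 476 genes, narrower for 57, and changed sign for 89.

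**Figure D4:**
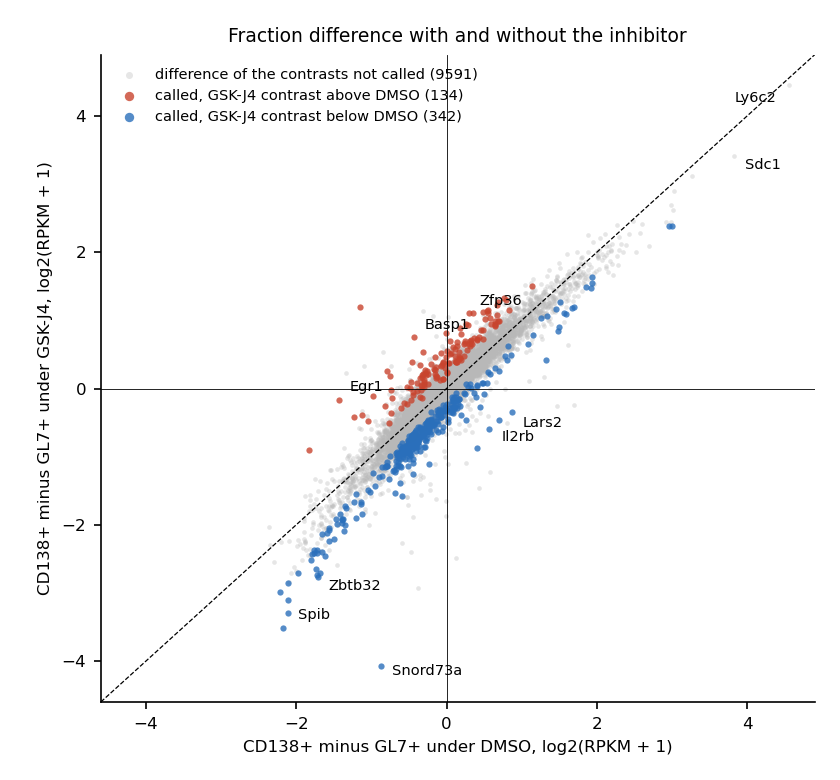
Difference between CD138+ and GL7+ cells under DMSO (x axis) and under GSK-J4 (y axis), both on the log2(RPKM + 1) scale, for 10067 genes; coloured points are the 134 and 342 genes for which the differences themselves differed, and the dashed line marks equal values. Most genes lie along the dashed line, Spib and Zbtb32 lie below it and Egr1 and Basp1 above it.

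Of the 342 genes with a value below 0, 299 were higher in GL7+ cells under GSK-J4. The named genes furthest below 0 were, beside Snord73a, Mir1894 (-1.28), Lars2 (-1.22), Spib (-1.18) and Il2rb (-1.16). Spib stood at 88.7, 80.6 and 89.0 RPKM in GL7+ and 21.4, 19.6 and 16.6 in CD138+ DMSO libraries. With the GSK-J4 values given above, its log2 difference went from -2.11 to -3.29, a change of -1.18 (adjusted p = 0.0069). Zbtb32 changed by -1.05, Gypc by -1.01, Id3 and Cd22 by -1.0, Fcer2a by -0.77 and Pax5 by -0.72. In Spib, Zbtb32, Gypc, Id3, Cd22, Fcer2a and Pax5 every CD138+ library under GSK-J4 lay below every CD138+ library under DMSO. Of the B cell identity list 4 of 21 genes and of the receptor signalling list 5 of 32 passed below 0, and none of either passed above 0. Over all tested genes 3.4% passed below 0 and 1.33% above, and the list counts here and below are read against these shares.

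Immediate early genes, which respond within minutes to receptor signals, changed in the other direction. Of 16 tested, 8 passed above 0 and none below, and their median difference between fractions was 0.15 under GSK-J4 and -0.48 under DMSO. Egr1, a zinc finger factor, had 241, 205 and 271 RPKM in GL7+ and 102, 74.9 and 87.6 in CD138+ libraries under DMSO, but 161, 146 and 190 against 159, 149 and 134 under GSK-J4. The fractions were therefore apart under DMSO and overlapped under GSK-J4, and the change of 1.26 (adjusted p = 0.0038) was the widest above 0 among genes with at least 5 RPKM. Ier2 changed sign, from 52.1, 56.7 and 59.8 against 41.6, 38.1 and 42.2 to 48.2, 46.5 and 52.0 against 63.4, 64.7 and 64.2 RPKM. Fos (0.82), Egr2 (0.82), Zfp36 (0.81) and Junb (0.74) also passed, and of these Fos, a subunit of AP-1, had 15.7, 17 and 18.8 against 31.4, 29.4 and 31.9 under GSK-J4 and overlapped under DMSO. Basp1 (1.18), Vkorc1 (0.77), Gpr18 (0.72) and Gstt1 (0.69) completed the genes above 0 by the naming rule. The calls of Egr2 and Gstt1 were near the threshold (adjusted p = 0.038 and 0.046) and were lost in 10 and 9 of the 12 fits without 1 library, with adjusted p up to 0.096 and 0.11. Of 15 p53 targets 4 passed above 0 and none below, against 1.33% and 3.4% of all tested genes. Among them were Cdkn1a at 0.54 and Mdm2 at 0.27. In the limma fit with all 15 libraries neither passed (adjusted p = 0.37 and 0.088).

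Genes of the receptors for IL-2 and IL-5, the cytokines of the culture, changed mostly towards GL7+ cells. Of 15 tested, 6 passed below 0 and 1 above, and their median difference was 0.05 under GSK-J4 and 0.41 under DMSO. Il2rb, a chain of the IL-2 receptor, had 3.73, 3.50 and 4.50 RPKM in GL7+ and 6.40, 5.55 and 6.82 in CD138+ libraries under DMSO, and 5.55, 4.57 and 6.89 against 3.03, 3.42 and 3.71 under GSK-J4. Its fraction difference turned from 0.56 to -0.59 with no overlap in either medium. The gene above 0 was Il2rg, the chain shared by several cytokine receptors, which went from -0.30 to 0.07 (change 0.37, adjusted p = 0.013). Il5ra, the IL-5 receptor chain, had 3.62, 4.43 and 3.82 against 15.1, 15.3 and 14.8 under DMSO and 5.13, 4.91 and 4.49 against 12.4, 13.2 and 11.6 under GSK-J4. It stayed higher in CD138+ cells, by 1.20 in place of 1.70 (adjusted p of the change 0.015). The STAT5 targets Cish and Socs2 narrowed likewise, from 1.56 to 1.11 and from 1.59 to 1.09, although the change of Cish had an adjusted p of 0.054 in the fit blocked by mouse and of 0.052 to 0.058 without CD138+ GSK-J4 library 2, GL7+ DMSO library 3 or CD138+ DMSO library 3.

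**Figure D5:**
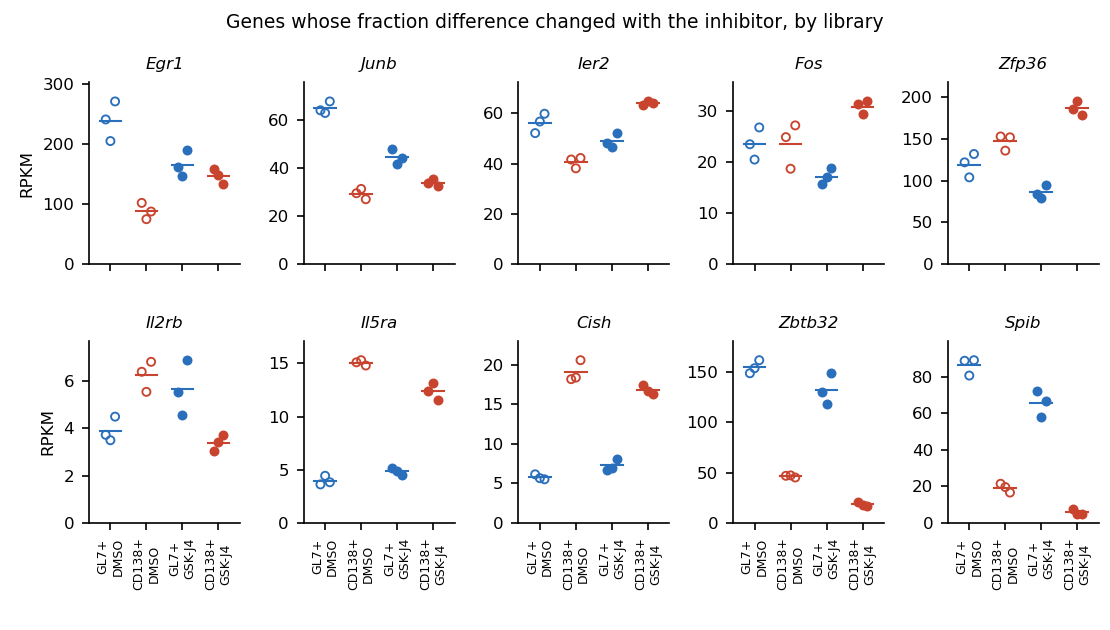
RPKM of 10 genes by library in 4 groups (blue GL7+, red CD138+; open symbols DMSO, filled symbols GSK-J4; bars are means of 3 libraries). Egr1 is apart between the fractions under DMSO and overlaps under GSK-J4, Il2rb changes order, and CD138+ libraries hold the lowest Zbtb32 and Spib under GSK-J4.

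Among plasma cell genes the changes that passed went both ways. The differences of Sdc1, Prdm1 and Xbp1 were 3.83, 1.75 and 2.06 under DMSO and 3.41, 1.51 and 1.88 under GSK-J4, and the changes did not pass (adjusted p = 0.13, 0.056 and 0.26). Irf4 narrowed from 1.45 to 1.16 (adjusted p = 0.017) and Fkbp11 from 3.00 to 2.39 (adjusted p = 0.026, and 0.05 to 0.067 in 6 of the 12 fits without 1 library). Of the 18 surface proteins 2 passed above 0: Cd81, a tetraspanin, widened from 0.52 to 1.03 (adjusted p = 0.011) and Ly6d from 0.31 to 0.70 (adjusted p = 0.037, lost in 9 of the 12 fits without 1 library). In the GL7+ group Sdc1 had 1.30, 1.54 and 1.26 RPKM under DMSO and 2.33, 3.30 and 3.00 under GSK-J4. Of 28 ER folding genes 6 passed below 0, with Creld2 at -0.45 and Hsp90b1 at -0.24, and none above. Creld2 passed in every alternative fit, while Hsp90b1 had an adjusted p of 0.058 in the fit blocked by mouse and was lost in 9 of the 12 fits without 1 library. In none of the 3 other secretory lists did a gene pass. Lars2, a mitochondrial leucyl-tRNA synthetase, changed from 0.87 to -0.34 and Mir1894 (81 bases, 4 to 24 reads in a GSK-J4 library) from 0.41 to -0.87, and both had wide spreads within groups. The change of Lars2 did not pass in the fit blocked by mouse (-1.09, adjusted p = 0.05), and that of Mir1894 was lost in 7 of the 12 fits without 1 library.

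The genes past 1 on the log2 scale were also described by their level in unstimulated cells, their length and their share of reads. In unstimulated cells, 289 of the 435 genes higher in CD138+ cells by at least 1 had a mean below both GSK-J4 fractions, and 281 of the 474 genes higher in GL7+ cells had a mean above both. The share over all tested genes was not counted, and choosing genes by their levels in the fractions can itself affect this position. Whether it is particular to these sets was therefore not tested. The median gene length was 3304 bases for the first set, 2653 for the second and 3400 over all tested genes. The first set took 12.4% of the reads of CD138+ and 4.61% of GL7+ cells under GSK-J4, and the second 1.52% and 4.39%. These shares follow from how the sets were chosen and are no separate result. Within the CD138+ group, library 1 was the highest of the 3 for 304 of the 474 genes of the second set (64.1%) and the lowest for 259 of the 435 of the first (59.5%), against 38.4% and 33.9% over all tested genes. It was also the shallowest library, at 6241186 reads, and the part of depth or of carried-over GL7+ cells in this order was not tested.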

How the data were processed

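Poly(A) RNA of GL7+ and CD138+ B cells cultured with GSK-J4 or DMSO, and of unstimulated B cells, was sequenced in 15 libraries. The deposited values are RPKM per gene, reads scaled to gene length and to the reads of the library in genes. The authors used TopHat2 and mm9, per the submitters' processing notes. Which tool counted the reads, with which annotation and whether by strand, is not given in the sources used here, so reads of overlapping or antisense genes cannot be told apart, and near-identical copies (Mt1 and Mt2, Ly6c1 and Ly6c2, the Bcl2a1 genes) may share reads.

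RPKM values moved in steps of 1 read, and dividing by the step gave reads that were whole within 0.1 read for 100% of values up to 20 reads. These reads gave the depths and served the alternatives with voom and with thinning. Because RPKM is relative to all reads in genes, a gain in abundant genes lowers the others. Symbols turned into dates were restored for 27 genes, 92 genes have no symbol, and 21615 of 21761 gene identifiers matched RefSeq (GRCm38.p6), the source of the promoter sequences and their coordinates. No coordinate is given in mm9.

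Tests ran in limma 3.58.1 (R 4.3.3, trended variance) over log2(RPKM + 1) of the genes that reached 1 RPKM in 3 or more of the 6 GSK-J4 libraries. The 12 cultured libraries were fitted as 4 group means and p-values adjusted by the Benjamini-Hochberg method over all 10067 genes, with a threshold of 0.05. A log2 difference on this scale understates the change of genes with low values. Groups follow the labels. CD138+ and GL7+ libraries of one number come from one mouse, per the labels, apart from the CD138+ GSK-J4 library that the file header numbers 4, while the titles of that group give mice 1 to 3. Deviations from the group means correlated at a median of 0.098 (-0.019 to 0.232, 15 pairs) within a mouse and -0.03 between mice (30 pairs). The mouse was fitted as a block as an alternative, with library 4 as a level of its own, and again with it as mouse 3 (added after the data were seen). Per the labels each mouse gave 1 library to a group, apart from the library headed 4, which is tied to no mouse. The p-values rest on the spread within groups, pooled over the 12 cultured libraries and moderated across genes. Without the block the pairing by mouse is left in that spread.

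The comparison and the gene lists were chosen with earlier results of these data known. Named genes are the 14 per direction with the largest difference (called, at least 5 RPKM in the higher group, no overlap), up to 4 per direction of each list, up to 10 per direction in the difference of the contrasts, 12 genes taken whatever their values (Sdc1, Prdm1, Xbp1, Irf4, Pax5, Bach2, Bcl6, Kdm6a, Kdm6b, Ezh2, Mt1 and Mt2) and defining markers of other cells. Creld2, Hsp90b1, Ero1lb and Calr were taken as the ER folding genes with the promoter element and the largest differences. A few genes that these rules take are not reported here. Named after their values were seen were Atf4, Canx, Cd81, Ddit3, Dnajb9, Dnajc3, Foxp1, Hspa5, Il2rg, Ly6d, Myc, Pdia6, Spi1, Tcf3 and Tlr4. Alternatives were pseudocounts of 0.1 and 0.5, no filter, a mean of at least 5 RPKM, TMM scaling, quantile normalization, the 6 libraries alone, all 15 libraries, the block, library weights, voom, thinning to 6241186 reads, and leaving out each cultured library.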

Additional observations from a re-analysis of the deposited data

Results flagged for a closer look

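The difference between CD138+ and GL7+ cells was itself compared between GSK-J4 and DMSO, and 476 genes passed that test with limma at an adjusted p under 0.05. The named genes among them are flagged for this reason, with the log2 difference under GSK-J4 minus that under DMSO. Among genes that were lower in CD138+ cells in both media the values were -1.18 for Spib, -1.05 for Zbtb32, -1.01 for Gypc, -1.0 for Id3, -1.0 for Cd22, -0.77 for Fcer2a, -0.74 for Ffar1, -0.73 for B3gnt5 and -0.72 for Pax5. Activation and signalling genes followed with -0.65 for Cd83, -0.65 for H2-DMb1, -0.46 for Cd40 and -0.26 for Nfkb1. Pik3cg had -0.58 but was higher in CD138+ cells in both media, by 2.38 under GSK-J4 and 2.96 under DMSO. For the cytokine receptors and their feedback genes the values were -1.16 for Il2rb, -0.50 for Il5ra, -0.50 for Socs2 and -0.46 for Cish.

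In the plasma cell and secretory programme the values were -0.61 for Fkbp11, -0.45 for Creld2, -0.29 for Irf4, -0.24 for Hsp90b1, -0.22 for Ero1lb and -0.19 for Hspa5. Ezh2 had -0.27, Rrm1 -0.21 and Batf3 -0.86. Lars2 had -1.22, and the short RNA gene Mir1894 had -1.28. Snord73a also passed, but it was listed at 0 in a whole group and no size is given.

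Above 0, immediate early genes had 1.26 (Egr1), 0.84 (Ier2), 0.82 (Fos), 0.82 (Egr2), 0.81 (Zfp36) and 0.74 (Junb). Stress and survival genes had 0.65 (Bcl2l11), 0.56 (Ppp1r15a), 0.54 (Cdkn1a), 0.27 (Mdm2) and 0.19 (Atf4). The remaining genes were Basp1 at 1.18, Vkorc1 at 0.77, Gpr18 at 0.72, Gstt1 at 0.69 and B2m at 0.40. Cd81 had 0.51, Ly6d 0.38 and Il2rg 0.37. Several of these calls were close to the threshold. In the fit blocked by mouse those of Atf4, Cd40, Cish, Ero1lb, Ffar1, Hsp90b1, Hspa5, Lars2 and Rrm1 did not pass, with adjusted p from 0.05 (Lars2) to 0.11 (Ffar1). Leaving out 1 library ended the calls of Atf4, Ffar1, Hspa5 and Rrm1 in 11 of the 12 fits, of Cd40 and Egr2 in 10, of B3gnt5, Gstt1, Hsp90b1 and Ly6d in 9, of Ppp1r15a in 8, of Mir1894 and Pik3cg in 7, of Ero1lb, Fkbp11 and Nfkb1 in 6, of B2m in 5 and of Cish in 3.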

How the results depend on the processing

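The count of genes that differed between the fractions under GSK-J4 (7198) stayed within 1.5 times of its value in all 25 alternatives, from 5608 with a mean of at least 5 RPKM to 7826 with no filter, and was 7126 with voom on recovered reads. The fits with these other filters tested other numbers of genes, so their counts are not shares of 10067. On the same 10067 genes the count ran from 6627 with all 15 libraries to 7307 with library weights. Of the 152 named genes, 137 kept direction and side of the threshold in every alternative and none reversed. Calls were lost in at least 1 alternative for Canx, Cd74, Cd79a, Egr2, Foxo1, Gstt1, Itgb7, Mir106b, Sec24b and Tnfrsf13b, and gained in at least 1 for Foxp1, Il2rg, Lars2, Tcf3 and Tlr4. With the mouse as a replicate block the counts were 6894 under GSK-J4, 6977 under DMSO and 487 for the difference of the contrasts. Among the named genes the block ended the calls of Canx, Itgb7 and Mir106b, brought Tcf3 past the threshold, and ended 9 of the 49 named changes between media. That fit pairs only mice 1 and 2 in the GSK-J4 contrast. A block that takes the library headed 4 as mouse 3, added after the data were seen, gave 7256, 6845 and 545, ended none of the named calls under GSK-J4 and ended 4 of the changes between media. The count for the difference of the contrasts (476, with 134 above 0 and 342 below) moved most: 299 (83 and 216) with no filter, 103 (34 and 69) with all 15 libraries, 910 (269 and 641) with library weights, 296 (85 and 211) after thinning, and 215 to 508 (69 to 150 and 146 to 390) without 1 library. The cause was not tested. Of the 49 named changes 31 passed in every fit without 1 library. A gene of median length at 1 RPKM rests on 16.9 to 33.0 reads in a library, and short RNA genes on fewer, so small differences there were not detectable at this depth.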
